A study of Homo sapiens with 9 samples.

Results

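The genes described here are 10 members of the MYC network and the MYB family, namely MYC, MAX, MXI1, MXD3, MXD4, MNT, MLX, MGA, MYB and MYBL2. They were chosen by name and not by a measured value, though earlier results of these data were known. For each gene, the read pairs were summed whose 5′ and 3′ ends both lay on its strand within 1 kb of its Gencode v44 body (genome build hg38). The 10 genes are among 22384 genes with at least 1 read pair and among 12135 with enough pairs for a test, and they held 9433 of the 15358140 read pairs (0.0614%).

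TIF-Seq2 sequences both ends of the same full-length cDNA, so that 1 read pair marks where a single capped and polyadenylated RNA began and ended. K562, an established erythroleukemia cell line that carries the BCR-ABL1 fusion kinase, was exposed for 24 h to 1 μM imatinib, an inhibitor of that kinase, or to the DMSO vehicle without imatinib. Each condition had 2 biological replicates, and the libraries held 3695520 and 5135829 read pairs in DMSO and 4263670 and 2263121 in imatinib. The cells are 1 line in culture, so the values describe this line at 1 dose and 1 time.

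MYC is a transcription factor that binds DNA at the E-box motif as a dimer with MAX and activates genes of growth, ribosome synthesis and metabolism. The MXD proteins (MXI1, MXD3 and MXD4), MNT and MGA also pair with MAX and act mostly as repressors at the same motif, and MXD proteins are known to replace MYC as cells differentiate. MLX is the partner of the glucose-sensing Mondo proteins and also pairs with some MXD proteins and MNT. MYB keeps haematopoietic progenitors immature and dividing, and its relative MYBL2 drives genes of the G2 and M phases together with the MuvB complex.

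The label of the cells was checked on marker genes. Of 11 tested erythroid and K562 markers, 7 were higher after imatinib and none was lower, and the summed level of the list was 6285 to 7547 CPM (read pairs per 1000000 pairs of TMM-scaled library size) in the DMSO libraries and 20034 to 20256 in the imatinib libraries. At an unadjusted p under 0.05 none of them was lower either, and DESeq2 called 7 higher and 0 lower. The globin genes HBG2, HBE1 and HBZ held most of the summed level. Their mean CPM was 3704, 1349 and 1110 in DMSO and 8941, 3521 and 5592 in imatinib. Of the list, GATA1, TAL1, TFRC and ABL1 did not pass. The 3 megakaryocyte markers summed to 0.445 to 2.69 CPM, the 3 myeloid markers to at most 0.192 with CD14 and ELANE at 0, and the lymphoid markers CD3E and MS4A1 were at 0. Most of the tested erythroid markers therefore moved with the treatment beside every result below, and their part in those results was not tested. In bulk samples such as these, fewer cells of a type and less RNA per cell cannot be told apart.

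Of the 10 genes, 2 passed the test between imatinib and DMSO (edgeR's quasi-likelihood test, Benjamini-Hochberg adjusted p under 0.05), against 14.8% of all genes tested. MXD4 was higher, in a direction called for 8.69% of all genes, and MYB was lower, in a direction called for 6.15%. Both also lay beyond a log2 fold change of 1.5 in size, where 9.72% of all genes were called. At an unadjusted p under 0.05, 3 of the 10 were higher and 4 lower, and DESeq2 called 0 higher and 1 lower (MYB). The median log2 fold change of the 10 genes was -0.29, and that of all genes tested was 0.03. The levels of the imatinib libraries did not overlap those of the DMSO libraries for 8 of the 10 genes, which was the case for 60% of all genes tested.

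**Figure D1:**
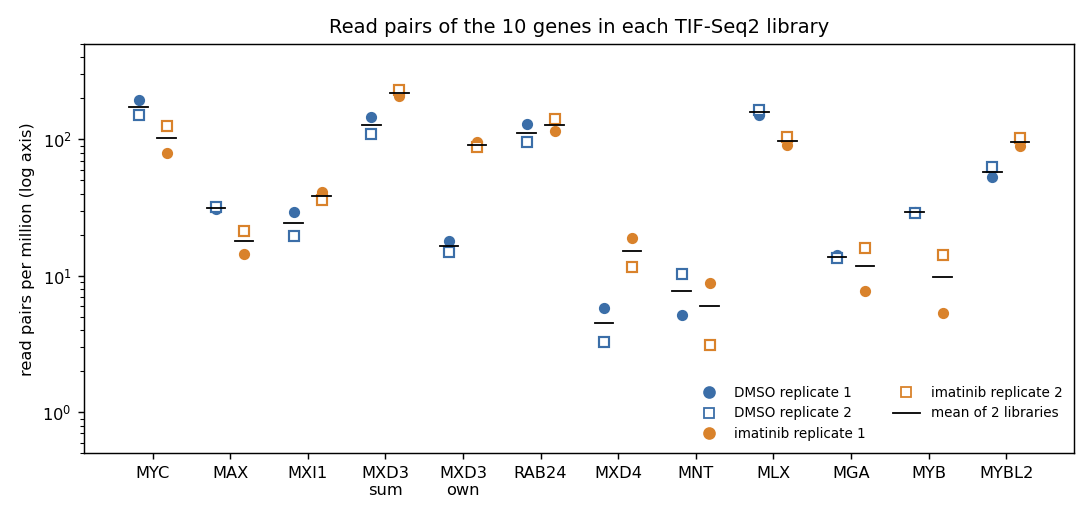
CPM of each gene in the 4 TIF-Seq2 libraries, on a log axis, with a line at the mean of the 2 libraries of a condition. For MXD3 the sum over its window, the pairs that are its own and the pairs of the overlapping gene RAB24 are shown apart, and MXD3's own pairs lie at 15.0 and 17.9 in DMSO and at 87.6 and 95.1 in imatinib.

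**Figure D2:**
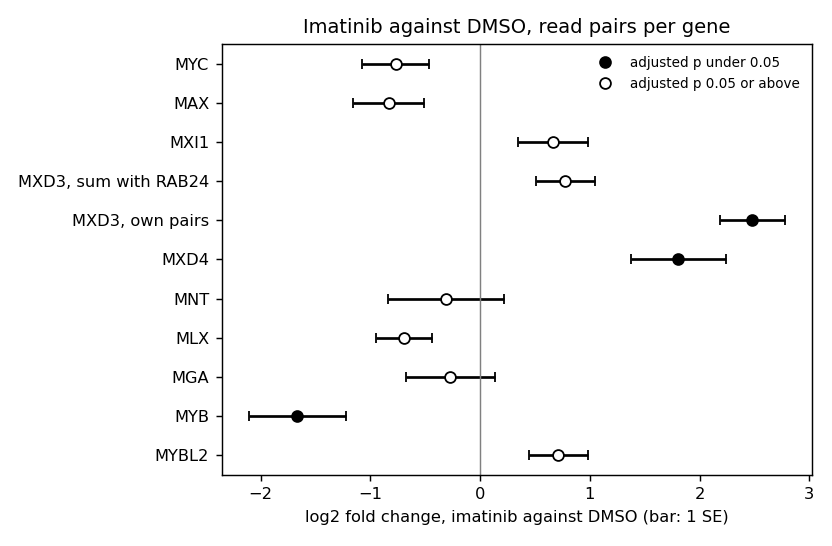
The log2 fold change of each gene, imatinib against DMSO, with a bar of 1 SE from edgeR, and filled points where the adjusted p is under 0.05. MXD4 and MXD3's own pairs lie to the right of 0 and MYB to the left, and the bars of MNT and MGA cross 0.

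MYC lies on the + strand at chr8:127735434-127742951. It gave 675 and 791 read pairs in DMSO and 361 and 280 in imatinib, or 195 and 152 CPM against 79.8 and 124. Both imatinib libraries lay below both DMSO libraries, imatinib replicate 1 further than replicate 2. Its log2 fold change was -0.77 ± 0.31 (SE) and did not pass the test (edgeR adjusted p = 0.123). Its size depended on which imatinib library was kept, at -1.15 without imatinib replicate 2 and -0.46 without imatinib replicate 1. With every library kept, MYC was called when the filter on low counts was left out and under the crossed replicate pairing described below.

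MYC transcription is known to start at 2 main promoters, P1 and P2, which lie close together at exon 1, and P2 is the stronger one in most cells. Start regions were formed from 5′ tags at least 1 normalized tag high in 2 libraries, joined within 50 bp. At a nucleotide, 1 normalized tag stood for 9 and 11 tags in the DMSO libraries and 8 and 5 in the imatinib libraries. Weak or scattered starts could therefore form no region. MYC had a single start region, 6 bp wide, whose most used position is the P2 start at 127736231, the first base of the canonical transcript MYC-206. That nucleotide alone held 963 of the 2107 MYC read pairs (45.7%).

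Read pairs starting within 50 bp of P2 made up 59.4% and 66.1% of the MYC pairs in the DMSO libraries and 64.8% and 67.5% in the imatinib libraries. The shares of both conditions overlapped. P1 is annotated 147 bp upstream of P2 by MYC-202, and the window lying over 100 and up to 200 bp upstream of P2 held 3 and 9 read pairs in DMSO and 0 and 1 in imatinib. Together these 13 pairs were 0.956% of the pairs from P1 and P2 (exact Clopper-Pearson 95% interval 0.510 to 1.63%), against 1347 pairs from P2. A difference in P1 use between conditions was not tested on so few pairs.

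The other MYC 5′ ends lay further into the gene. Exon 2 held 14.4% and 10.9% of the starts in DMSO and 9.14% and 6.79% in imatinib, and exon 3 held 18.4% and 14.3% against 13.3% and 14.6%. The exon 2 shares of the 2 conditions did not overlap, and pooled they were 12.5% (exact 95% interval 10.8 to 14.3%) and 8.11% (6.12 to 10.5%). Intron 1 lay the other way, at 1.78% and 2.65% in DMSO and 4.71% and 4.64% in imatinib, and pooled it was 2.25% (1.55 to 3.15%) and 4.68% (3.18 to 6.61%). The rest of exon 1 held 4.15% and 3.67% against 6.93% and 5.00%, also without overlap. These intervals cover counting error only, and the shares of these classes were not tested over libraries. The annotated first exon group at chr8:127737521-127739832 holds exon 2 but also parts of introns 1 and 2. Its test therefore cannot decide on the exon 2 share alone. The log2 change of this group against the other first exons of the gene was -0.35 and did not pass (edgeR diffSpliceDGE adjusted p = 1.00).

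All MYC read pairs ended well short of the annotated end of MYC-206, with the furthest 3′ end at 127741444 and 0 pairs more than 50 bp past the annotated end of MYC-202. Poly(A) regions, formed as start regions were but from 3′ ends with fewer than 7 A in the 10 nt downstream, lay at 127741275 and 127741425 inside exon 3. The downstream region took 84.1% and 85.8% of the pairs in DMSO and 88.4% and 86.4% in imatinib, and the upstream one 14.7% and 11.5% against 10.2% and 11.1%. Here and below, poly(A) shares are of the pairs with fewer than 7 A downstream. The conditions did not overlap at either site, by a margin of under 1 percentage point. Their relative use did not pass the test (log2 changes 0.04 and -0.31, edgeR diffSpliceDGE adjusted p = 1.00 for each).

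Start and end were read from the same molecule, so both could be linked. Of the pairs from the P2 start region, 82.4% (exact 95% interval 80.2 to 84.5%) ended in the downstream poly(A) region and 15.0% (13.0 to 17.1%) in the upstream one. Of the pairs from the first exon group over exon 2, 88.9% (84.7 to 92.2%) ended downstream. A TIF is 1 pair of a start cluster and a poly(A) cluster with at least 4 read pairs. The TIF from P2 to the downstream site had 299 and 396 read pairs in DMSO and 186 and 149 in imatinib, and the TIF to the upstream site had 65 and 71 against 27 and 24. Neither passed the test (log2 fold changes -0.45 ± 0.32 and -0.84 ± 0.43, edgeR adjusted p = 0.385 and 0.232). Here and below, TMM factors were fitted apart for each kind of feature. For gene sums they were 0.937 and 1.013 in DMSO and 1.061 and 0.994 in imatinib. For TIFs they were 1.017 and 1.046 against 0.948 and 0.991. Fold changes of gene sums, regions and TIFs are therefore not on the same scale.

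**Figure D3:**
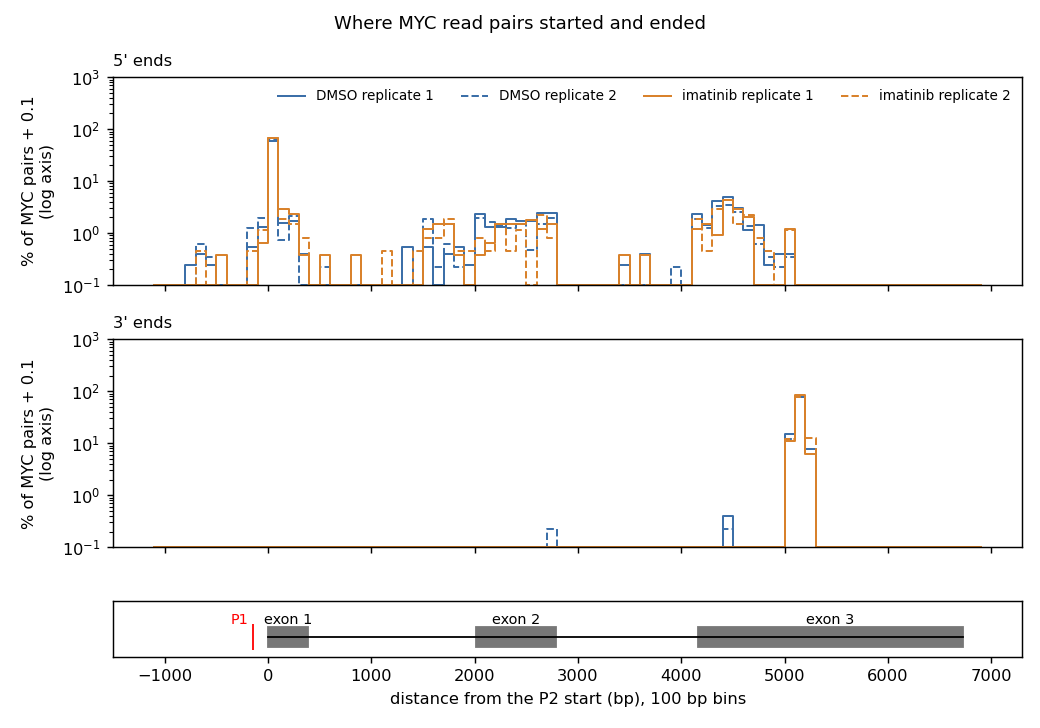
Share of the MYC read pairs of each library whose 5′ end (top) or 3′ end (middle) fell in each 100 bp bin, by distance from the P2 start, on log axes after adding 0.1 percentage points, above the exons of MYC-206 and the annotated P1 start. The 4 libraries share 1 tall bin at P2, low bins over exons 2 and 3, and 3′ ends that stop short of the end of exon 3.

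MAX, the common partner of the network, lies on the - strand at chr14:65006174-65102695. It gave 107 and 165 read pairs in DMSO and 65 and 48 in imatinib, or 30.9 and 31.7 CPM against 14.4 and 21.3. Both DMSO libraries were nearly equal and lay above both imatinib libraries. MAX had a log2 fold change of -0.83 ± 0.32 that did not pass (edgeR adjusted p = 0.118). It was -1.15 without imatinib replicate 2 and -0.54 without imatinib replicate 1.

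MAX starts were concentrated, with 82.9% of the pairs in the annotated first exon group and 31.4% at the single nucleotide 65102517. Its 3′ ends fell on several sites. The site at 65075127, the annotated end of the canonical MAX-205, took 53.5% and 54.2% of the pairs in DMSO and 52.5% and 67.4% in imatinib. The site at 65083740 lies in intron 3 of MAX-205, 4 bp from the annotated end of MAX-201, and took 13.9% and 17.4% against 24.6% and 4.35%. The middle site at 65075547 had 17 and 13 read pairs in DMSO and 5 and 7 in imatinib, or 16.8% and 8.39% against 8.20% and 15.2%. The 2 imatinib libraries thus bracketed both DMSO libraries at the intronic site. A change in relative use was not shown for any of the 3 MAX poly(A) regions tested (log2 changes -0.20 to 0.10, edgeR diffSpliceDGE adjusted p = 1.00 for each). As TIFs from 65102517, the one to the last site had 14 and 30 read pairs against 8 and 8 and did not pass (log2 fold change -0.83 ± 0.55, edgeR adjusted p = 0.355). The TIF to the middle site had 9 and 4 against 0 and 5, and the TIF to the intronic site 6 and 12 against 6 and 0, too few for the test. The 30 nt up to each site on the RNA strand are shown (hg38, - strand), with an AATAAA signal in capitals where present, since 1 of the 3 sites has neither AATAAA nor ATTAAA in this window.
MAX intronic site, chr14:65083740-65083769: aaAATAAAacagatgtcagttgttgagtcc
MAX middle site, chr14:65075547-65075576: gcgacagattcataaagtaatgatgaaatc
MAX last site, chr14:65075127-65075156: agactataAATAAAaacttattttatcctt

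MXI1, a repressor partner of MAX, lies on the + strand at chr10:110207605-110287365 and has alternative first exons. It gave 102 read pairs in each DMSO library and 186 and 81 in imatinib, or 29.5 and 19.6 CPM against 41.1 and 36.0. Both imatinib libraries lay above both DMSO libraries. For MXI1 the log2 fold change of 0.66 ± 0.32 did not pass (edgeR adjusted p = 0.193).

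The starts of MXI1 were spread over 266 positions, none with more than 4.03% of the pairs, so no start region and no TIF of MXI1 reached the thresholds. They were therefore grouped by annotated first exon, extended 100 bp upstream. Of the 6 groups with a read pair, 3 held at least 20 pairs each. The furthest upstream group, at chr10:110207505-110208082, holds the first exon of the canonical MXI1-202. The middle group lies at chr10:110225893-110226386, its most used start 18391 bp downstream of that of MXI1-202, and it holds the first exon of MXI1-201. The downstream group at chr10:110226895-110228321 joins the first exons of 20 annotated transcripts. The 30 nt around the most used start of each group show the base before the start and the first base of the RNA in capitals (hg38, + strand).
MXI1 upstream group, chr10:110207590-110207619: ttcattcaatctccCAtacacacagactca
MXI1 middle group, chr10:110225981-110226010: ctcgcggggagaggTAaacaaaccacgcgc
MXI1 downstream group, chr10:110227334-110227363: ggaggtgtgtgtgcTGagatcgtgagtgga

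All 3 of these starts have a pyrimidine followed by a purine, the usual initiator dinucleotide. They rest on 7, 19 and 15 read pairs. Of the 9320 start regions of all genes 69.8% had it, but MXI1 has no start region, so this share is not a like comparison. The upstream group had 2 and 3 read pairs in DMSO and 20 and 7 in imatinib, or 0.566 and 0.561 CPM against 4.61 and 3.14. Both imatinib libraries lay well above both DMSO libraries, on few pairs. Its log2 fold change was 2.77 ± 0.61 (edgeR adjusted p = 0.0127). The upstream group had enough pairs for the test only through the imatinib libraries, so its call is not independent of that selection. With 6.79% of the MXI1 pairs it fell below the 10% at which a region was to be described, and it is given because the MXI1 first exons are compared with each other.

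The middle group had 50 and 46 read pairs in DMSO and 55 and 32 in imatinib, and the downstream group had 25 and 26 against 63 and 22. The middle group overlapped between conditions at 14.1 and 8.60 CPM against 12.7 and 14.3, and its log2 fold change was 0.26 ± 0.39 (edgeR adjusted p = 0.716). The downstream group did not overlap, at 7.07 and 4.86 CPM against 14.5 and 9.85, and its log2 fold change of 1.07 ± 0.43 did not pass (edgeR adjusted p = 0.119).

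As a share of the MXI1 pairs, the upstream group held 1.96% and 2.94% in DMSO and 10.8% and 8.64% in imatinib, while the middle group was at 49.0% and 45.1% against 29.6% and 39.5%. Pooled, the upstream share was 2.45% (exact 95% interval 0.801 to 5.63%) in DMSO and 10.1% (6.77 to 14.4%) in imatinib. A different use of the first exons within MXI1 was not shown, since the relative-use test gave a log2 change of 2.02 for the upstream group with an edgeR diffSpliceDGE adjusted p = 0.116. The call on the level of the upstream group itself was lost under DESeq2 (adjusted p = 0.175), without DMSO replicate 1 (edgeR adjusted p = 0.0835) and without DMSO replicate 2 (edgeR adjusted p = 0.177), and without imatinib replicate 1 the group had too few pairs for the test.

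Most MXI1 molecules ended at 1 site whichever first exon they used. The poly(A) region at 110286634 took 87.2% and 85.1% of the pairs in DMSO and 87.4% and 92.7% in imatinib. It closed 79.2% (exact 95% interval 57.8 to 92.9%) of the 24 pairs of the upstream group that did not end before A-rich sequence, 91.2% (85.2 to 95.4%) of the middle group and 85.4% (77.1 to 91.6%) of the downstream group. A further 74 pairs ended at 110286492, where all 10 downstream bases are A, and such ends, which can arise from priming inside the RNA, were left out of poly(A) regions. For the main site, the log2 fold change of 0.70 ± 0.40 did not pass (edgeR adjusted p = 0.312). The main site carries an AATAAA signal, in capitals (hg38, + strand).
MXI1 main site, chr10:110286605-110286634: gaaAATAAAgacaaccatatttagcagtgc

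**Figure D4:**
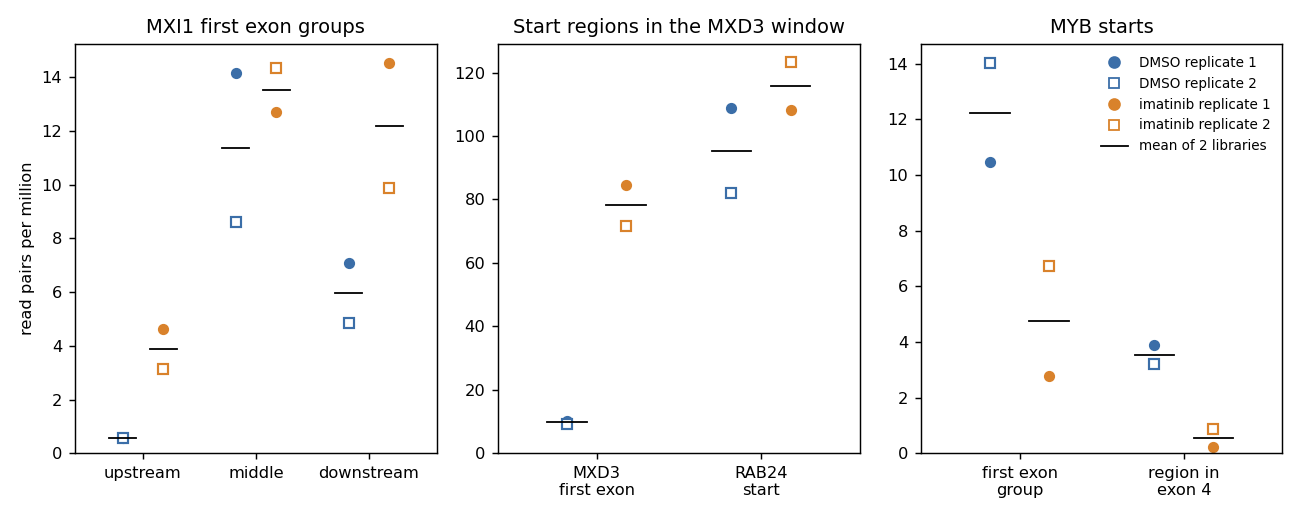
CPM of the MXI1 first exon groups, of the start regions in the MXD3 window and of the MYB starts in each library, with a line at the mean of the 2 libraries of a condition. The MXI1 upstream group and the MXD3 first exon are higher in both imatinib libraries, the RAB24 start overlaps between conditions, and both MYB starts are lower in both imatinib libraries.

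MXD3, a repressor partner of MAX known from proliferating progenitors, lies on the - strand at chr5:177301461-177312757. Its window also holds RAB24, a gene of the RAB family of small GTPases at chr5:177301198-177303744 on the same strand, and 1775 of the 2542 read pairs in the window (69.8%) fit a RAB24 transcript better. The sum over the window was 507 and 572 read pairs in DMSO and 947 and 516 in imatinib, with a log2 fold change of 0.78 ± 0.27 that did not pass (edgeR adjusted p = 0.0853). Another 8711 pairs on the opposite strand were not counted.

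With each pair given to 1 gene, a choice made after these values were seen, MXD3 had 62 and 78 read pairs in DMSO and 430 and 197 in imatinib, or 17.9 and 15.0 CPM against 95.1 and 87.6. The replicates of a condition lay close together and the conditions far apart. MXD3 was then higher after imatinib, with a log2 fold change of 2.48 ± 0.30 (edgeR adjusted p = 0.00246, against 15% of all genes called in this count, 8.9% higher and 6.06% lower). It was also 2.48 when the 1 kb window was left away (edgeR adjusted p = 0.00213). RAB24 had 445 and 494 read pairs against 517 and 319, and its log2 fold change was 0.20 ± 0.28 (edgeR adjusted p = 0.674).

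The ends separate both genes without any assignment. The start region at 177311898, at the annotated start of MXD3-202 in exon 1, had 37 and 49 read pairs in DMSO and 358 and 163 in imatinib, or 10.3 and 9.30 CPM against 84.5 and 71.8. Its log2 fold change was 3.00 ± 0.32 (edgeR adjusted p = 0.000728). The start region at 177303719, which belongs to RAB24, had 393 and 432 read pairs against 458 and 280, and its log2 fold change was 0.28 ± 0.28 (edgeR adjusted p = 0.532). Of 8 start regions tested in the 10 genes, 2 were called, this one of MXD3 and 1 of MYB, against 16.4% of all start regions (9.07% higher and 7.36% lower). Relative to the RAB24 start, the MXD3 start also changed, by a log2 change of 2.12 (edgeR diffSpliceDGE adjusted p = 0.00196), and without DMSO replicate 1 or without DMSO replicate 2 this call was lost.

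The MXD3 poly(A) region at 177307205, 5 bp past the annotated end of MXD3-203, had 48 and 64 read pairs in DMSO and 389 and 178 in imatinib, with a log2 fold change of 2.76 ± 0.33 (edgeR adjusted p = 0.00811). A minor MXD3 site, below the size at which regions were to be described and named after its values were seen, lay at 177309547 in intron 4 of MXD3-203. It had 10 and 5 read pairs against 25 and 17, and its log2 fold change of 1.90 ± 0.60 did not pass (edgeR adjusted p = 0.091). Among MXD3's own pairs the intronic site took 16.1% and 6.41% in DMSO and 5.81% and 8.63% in imatinib, so that the conditions overlapped. The last-exon site took 77.4% and 82.1% against 90.5% and 90.4%. Pooled, the last-exon share was 80.0% (exact 95% interval 72.4 to 86.3%) and 90.4% (87.9 to 92.6%). These intervals cover counting error only, and the share among MXD3's own pairs was not tested over libraries. The relative use of this site within the window, RAB24's site included, had a log2 change of 1.86 and did not pass (edgeR diffSpliceDGE adjusted p = 0.0621).

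Of the pairs from the MXD3 start region, 89.6% (exact 95% interval 86.9 to 91.9%) ended at the last-exon site, 6.92% (5.03 to 9.24%) at the intronic one, and 1 of 607 (0.165%, exact 95% interval 0.00417 to 0.914%) at the RAB24 site. Of the pairs from the RAB24 start region, 96.3% (95.2 to 97.2%) ended at its own site. As TIFs, the one to the last exon had 29 and 37 read pairs in DMSO and 303 and 137 in imatinib, and the one to the intron had 5 and 1 against 19 and 15. Both were called, with log2 fold changes of 3.22 ± 0.36 and 2.98 ± 0.73 (edgeR adjusted p = 0.00227 and 0.0285), and they were the 2 called among 13 TIFs tested in the 10 genes, against 11.6% of all TIFs (6.58% higher and 4.99% lower). The RAB24 TIF had 345 and 385 read pairs against 417 and 258 and did not pass (0.42 ± 0.29, edgeR adjusted p = 0.383). The TIF to the intron held 1.95% of the TIF pairs in the window, under the 10% at which TIFs were to be described, and rests on 6 pairs in DMSO. It had enough pairs for the test only through the imatinib libraries, so its call is not independent of that selection. Under DESeq2, and without DMSO replicate 2, 1 MXD3 TIF was called.
MXD3 start, chr5:177311884-177311913: tgtcagttactttgTAacaaaagtgctgca
RAB24 start, chr5:177303705-177303734: ccccgccccctcgcCCtctagccccctccc
MXD3 last-exon site, chr5:177307205-177307234: ttttcATTAAAagcctctttcataacttcc
RAB24 site, chr5:177301452-177301481: tgtaAATAAAatcagtgcactgtgcatcac

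These windows are on the - strand of hg38. Capitals mark the base before the start and the first base in the 2 start windows and the poly(A) signal in the 2 end windows. The MXD3 start has a pyrimidine before a purine, and the RAB24 start has a pair of C at these positions. The MXD3 site carries the variant ATTAAA and the RAB24 site AATAAA. Over all 27701 poly(A) regions, 52.1% had AATAAA and 18% ATTAAA in the 30 nt up to the site, and 68.2% had at least 1 of them.

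MXD4, a further repressor partner of MAX, lies on the - strand at chr4:2247432-2262109. It gave 20 and 17 read pairs in DMSO and 85 and 26 in imatinib, or 5.78 and 3.27 CPM against 18.8 and 11.6. Both imatinib libraries lay above both DMSO libraries on low counts. MXD4 rose by a log2 fold change of 1.81 ± 0.43 (edgeR adjusted p = 0.0257). The call was lost under DESeq2 (adjusted p = 0.0562) and without DMSO replicate 2, where the log2 fold change was 1.39 (edgeR adjusted p = 0.183). Of its pairs 15 fit the overlapping MIR4800 better, and without them the log2 fold change was 1.95 ± 0.44 (edgeR adjusted p = 0.0213).

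MXD4 molecules had scattered 5′ ends, at 122 positions with at most 6 pairs each, and 22.3% of the pairs started within 100 bp of an annotated start, against 86.4% of all read pairs. The largest annotated first exon group, at chr4:2252408-2255334, held 22 pairs (14.9%), too few for the test. Their 3′ ends lay at 2 sites in the last exon. The site at the annotated end of the gene, 2247433, had 6 and 2 read pairs in DMSO and 40 and 14 in imatinib. This distal site had enough pairs for the test only through the imatinib libraries, so its call is not independent of that selection. The proximal site at 2250229, 2797 bp before that end, had 12 and 10 against 25 and 10. The distal site was higher, with a log2 fold change of 3.06 ± 0.68 (edgeR adjusted p = 0.033), a call that was lost without DMSO replicate 2 (edgeR adjusted p = 0.203), and the proximal site did not pass at 1.05 ± 0.52 (edgeR adjusted p = 0.247).

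The distal share of the MXD4 pairs was 30.0% and 12.5% in DMSO and 48.8% and 53.8% in imatinib, and the proximal share 60.0% and 62.5% against 30.5% and 38.5%. The shares of the 2 conditions did not overlap at either site. The relative-use test did not pass (log2 changes 1.13 and -0.88, edgeR diffSpliceDGE adjusted p = 1.00 for each), so a shift between the sites was not shown at this depth. Of 17 poly(A) regions tested in the 10 genes, 2 were called, both higher (MXD3 and MXD4), against 7.78% of all poly(A) regions (4.69% higher and 3.09% lower). None of 13 tested was called in relative use, against 0.192% of all regions (0.0481% higher and 0.144% lower). At an unadjusted p under 0.05, 1 of the 13 passed, the MXD3 last-exon site. The distal MXD4 window holds neither signal, and the proximal one holds ATTAAA, in capitals (hg38, - strand).
MXD4 proximal site, chr4:2250229-2250258: cattccagaagtATTAAAcgtcattgctgc
MXD4 distal site, chr4:2247433-2247462: ttgtaatataaatacagatttttatatctc

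MNT, a repressor present in most cells, lies on the - strand at chr17:2384073-2401104. It gave 18 and 54 read pairs in DMSO and 40 and 7 in imatinib, or 5.20 and 10.4 CPM against 8.85 and 3.11. The conditions overlapped, and replicates differed as much as conditions did. For MNT the log2 fold change of -0.31 ± 0.53 did not pass (edgeR adjusted p = 0.732) and had no stable direction, at 0.26 without DMSO replicate 2 and 0.11 without imatinib replicate 2. MNT starts had their highest position at 2401060 with 39 pairs, and its main poly(A) region at 2384074 took 47.5% of the pairs. The single MNT TIF joined these positions with 2 and 5 read pairs in DMSO and 6 and 2 in imatinib, too few for the test. The MNT first exon group had 11 and 39 read pairs against 20 and 6 (log2 fold change -0.49 ± 0.54, edgeR adjusted p = 0.598). At 2384253, before 10 genomic A, another 17 pairs ended.

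MGA, a very large MAX partner found in a polycomb complex, lies on the + strand at chr15:41621134-41773081. It gave 49 and 70 read pairs in DMSO and 35 and 36 in imatinib, or 14.2 and 13.5 CPM against 7.74 and 16.0. The imatinib libraries bracketed the DMSO libraries. For MGA the log2 fold change of -0.27 ± 0.40 did not pass (edgeR adjusted p = 0.691), and it was 0.23 without imatinib replicate 1. Its canonical mRNA of 12193 nt is the longest of the 10 genes, and 5.79% of its pairs started within 100 bp of an annotated start. Of its pairs 53.7% ended before 7 or more A, against 8.33% of all read pairs, 68 of them at 41762197, and 2.63% had both ends within 100 bp of annotated ones. Its poly(A) region at 41769842 had 2 and 10 read pairs in DMSO and 5 and 8 in imatinib, too few for the test.

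MLX lies on the + strand at chr17:42567072-42573239. It gave 523 and 853 read pairs in DMSO and 413 and 233 in imatinib, or 151 and 164 CPM against 91.3 and 104. Both imatinib libraries lay below both DMSO libraries with little spread. For MLX the log2 fold change of -0.70 ± 0.26 did not pass (edgeR adjusted p = 0.104), and it was -0.81 without imatinib replicate 2. Another 832 pairs ended in the MLX window but started outside it, and were not counted.

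MLX starts were sharp, with 84.2% of the pairs in a start region 36 bp wide around 42567102, and its ends were split over sites in the last exon. The site at 42571834 took 63.1% and 61.3% of the pairs in DMSO and 61.3% and 54.3% in imatinib, the site at 42572698 took 27.5% and 31.5% against 31.2% and 40.1%, and the annotated end of the canonical MLX-203 at 42573202 took 1.88% to 3.06%. Imatinib replicate 2 used the middle site most. A change in relative use was not shown at any of the 3 (log2 changes -0.14 to 0.23, edgeR diffSpliceDGE adjusted p = 1.00 for each). The TIF from 42567102 to the first site had 269 and 419 read pairs in DMSO and 166 and 86 in imatinib (log2 fold change -0.91 ± 0.30, edgeR adjusted p = 0.0805), and the TIF to the middle site 103 and 198 against 81 and 59 (-0.48 ± 0.36, edgeR adjusted p = 0.420). The middle site holds both AATAAA and ATTAAA, in capitals (hg38, + strand).
MLX middle site, chr17:42572669-42572698: atataaaATTAAAttatAATAAAtattgcc

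**Figure D5:**
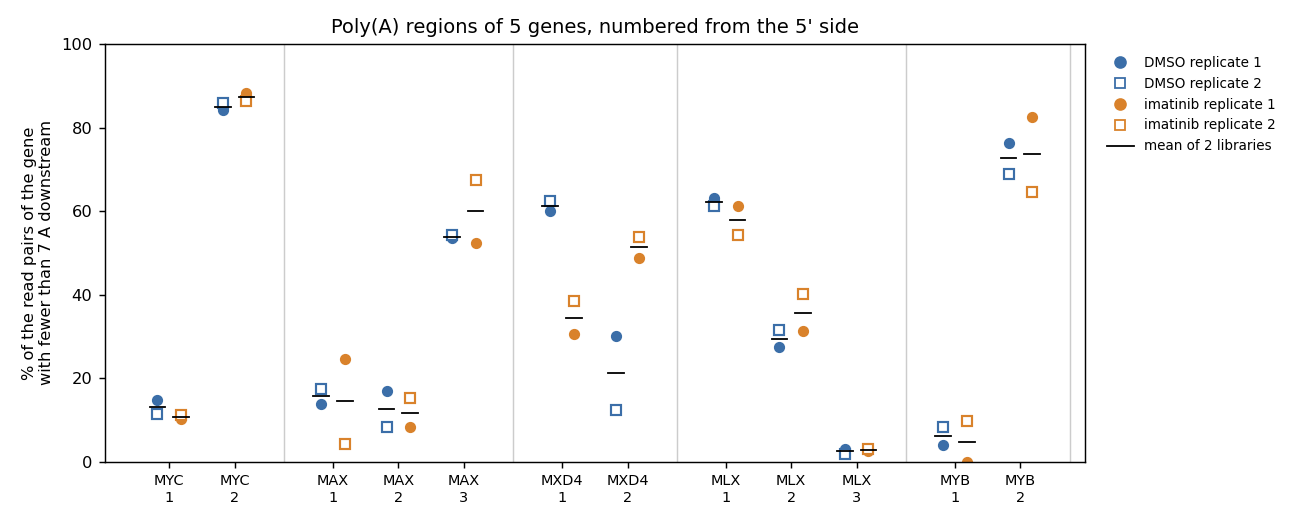
Share of the read pairs with fewer than 7 A downstream of MYC, MAX, MXD4, MLX and MYB that ended in each of their main poly(A) regions, per library, numbered from the 5′ side of the gene, with a line at the mean of the 2 libraries of a condition. The MXD4 shares separate the conditions (distal 12.5% and 30.0% in DMSO, 48.8% and 53.8% in imatinib), the MYC and MLX shares separate them by little or not at all, and the main MAX and MYB shares overlap.

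MYB lies on the + strand at chr6:135181308-135219173. It gave 102 and 151 read pairs in DMSO and 24 and 32 in imatinib, or 29.5 and 29 CPM against 5.31 and 14.2. Both DMSO libraries were nearly equal and lay above both imatinib libraries, which differed from each other. The log2 fold change was -1.66 ± 0.44 (edgeR adjusted p = 0.0378). It was -2.48 without imatinib replicate 2 and -1.02 without imatinib replicate 1, where the call was lost (edgeR adjusted p = 0.0585).

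MYB 5′ ends fell into the annotated first exon and into the gene body. The first exon group had 37 and 75 read pairs in DMSO and 12 and 15 in imatinib, and its log2 fold change of -1.47 ± 0.49 did not pass (edgeR adjusted p = 0.0704). The only MYB start region lay at a single nucleotide, 135189844, inside exon 4 of the canonical MYB-203 and 3826 bp from the nearest annotated start, with 14 and 17 read pairs against 1 and 2. The position passed the tag threshold and had enough pairs for the test only through the DMSO libraries. It was thus selected where it was high, and neither its interval nor its call is independent of that selection. Its level was 7.58-fold lower after imatinib (exact 95% interval of the counts 2.36 to 38.7), and it was called (log2 fold change -2.82 ± 0.73, edgeR adjusted p = 0.0294). The call was lost without either DMSO library (edgeR adjusted p = 0.0575 without DMSO replicate 1 and 0.065 without DMSO replicate 2), without imatinib replicate 1 (0.209) and under DESeq2 (0.149). Whether this position is a promoter was not tested, and its sequence is shown with the base before the start and the first base in capitals (hg38, + strand).
MYB position in exon 4, chr6:135189829-135189858: agtactaaaccctgAGctcatcaagggtcc

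The poly(A) region at 135219171 in the last exon took 76.2% and 69.0% of the MYB pairs in DMSO and 82.6% and 64.5% in imatinib. It closed 69.4% (exact 95% interval 60.9 to 77.1%) of the 134 first exon pairs with fewer than 7 A downstream and 66.7% (48.2 to 82.0%) of the 33 such pairs from exon 4. Its log2 fold change of -1.63 ± 0.44 did not pass (edgeR adjusted p = 0.0602). A minor site at 135194681 in intron 8, 5 bp before the annotated end of MYB-207 and named after its values were seen, had 4 and 12 read pairs in DMSO and 0 and 3 in imatinib. The TIF from exon 4 to the last exon had 11 and 10 read pairs in DMSO and 1 and 0 in imatinib, and the TIF from exon 4 to intron 8 had 1 and 3 against 0 and 1, too few for the test.

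MYBL2 lies on the + strand at chr20:43667019-43716495. It gave 184 and 326 read pairs in DMSO and 401 and 229 in imatinib, or 53.2 and 62.7 CPM against 88.7 and 102. Both imatinib libraries lay above both DMSO libraries, opposite to MYB. For MYBL2 the log2 fold change of 0.71 ± 0.27 did not pass (edgeR adjusted p = 0.113), and it was 0.82 without imatinib replicate 1. Its architecture was simple, with 79.8% of the pairs in a start region 41 bp wide and 98.6% at the poly(A) region at 43716482. The TIFs from 43667081 and 43667114, 33 bp apart, to that site had log2 fold changes of 0.67 ± 0.35 and 0.87 ± 0.36 and did not pass (edgeR adjusted p = 0.242 and 0.142).

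Over the isoforms, 2 of 11 first exon groups tested in the 10 genes were called, both higher (MXD3 and MXI1), against 14.3% of all groups (8.45% higher and 5.87% lower). None of 5 was called in relative use, against 2.27% of all groups (1.34% higher and 0.938% lower). At an unadjusted p under 0.05, 1 of the 5 passed, the MXI1 upstream group. Of 2 start regions tested for relative use 1 was called, against 6.54% of all (3.67% higher and 2.87% lower), but both lie in the MXD3 window and compare MXD3 with RAB24. MXD3 was called by its own start region, first exon group, last-exon poly(A) region and TIFs but not by the sum over its window. MXD4 was called by its gene sum and distal site, and MYB by its gene sum and exon 4 position. MXI1 was called by its upstream first exon. The MXD4 distal site, the MXI1 upstream first exon and the intronic MXD3 TIF had enough pairs for a test only through imatinib. The MYB exon 4 position had enough only through DMSO. The calls of these features are not independent of that selection.

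Promoters of 300 bases (250 before to 50 after each RefSeq start, GRCh38.p14) were searched for the E-box CACGTG, which reads the same on both strands. The table held 14 promoters of 9 of the genes, and 4 of the 14 contained the motif, those of MXD4, MNT, MLX and MYBL2. It held no promoter of MYC, which was therefore not searched. Over all 35116 promoters the share was 7.26%. The motif is in capitals, on the strand of the gene, and a match is a description and not evidence of binding.
MXD4, chr4:2262330-2262359: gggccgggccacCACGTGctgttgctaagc
MNT, chr17:2401236-2401265: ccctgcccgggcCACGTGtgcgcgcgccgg
MLX, chr17:42567038-42567067: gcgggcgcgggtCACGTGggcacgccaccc
MYBL2, chr20:43666864-43666888: ggactgaCACGTGagccaggcctcg

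Genes around the network were read from 4 lists, beside a background of 8.69% of all genes higher and 6.15% lower. The lists were chosen with earlier results of these data known, so their counts are not independent evidence. Of 26 tested relatives, cofactors and regulators of MYC, 1 was higher and 2 were lower, with a median log2 fold change of -0.14. MLXIPL, a glucose-responsive partner of MLX, had 1 pair in each DMSO library and 13 and 7 in imatinib, a ratio of 12.8 (exact 95% interval of the counts 3.11 to 113). It was called by edgeR (adjusted p = 0.0149) but not by DESeq2, and had enough pairs for a test only through the imatinib libraries. PIM1, a serine/threonine kinase, lay at 26.3 and 23.1 CPM in DMSO and 3.98 and 9.78 in imatinib (log2 fold change -1.93 ± 0.44, edgeR adjusted p = 0.0207). RUVBL2, an ATPase of chromatin remodelling complexes, lay at 510.4 and 416 against 200.4 and 267 (-0.99 ± 0.27, edgeR adjusted p = 0.0400). RUVBL1, its partner ATPase, did not pass at a log2 fold change of -0.79 ± 0.36 (edgeR adjusted p = 0.172). PVT1, the non-coding neighbour of MYC, lay at 486 and 371 against 303 and 587 and did not pass (0.05 ± 0.34, edgeR adjusted p = 0.936).

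Of 33 tested MYC target genes, a list chosen with earlier results known, 13 were lower and none was higher. The median log2 fold change was -0.91, with 31 of the 33 below 0. At an unadjusted p under 0.05 the counts were 20 lower and 0 higher, and DESeq2 called 15 lower and 0 higher. CCND2, the cell cycle regulator cyclin D2, lay at 25.4 and 31.3 CPM in DMSO and 2.65 and 6.22 in imatinib (-2.79 ± 0.44, edgeR adjusted p = 0.0055). PPAN and NOLC1, nucleolar proteins of ribosome synthesis, fell by 1.95 ± 0.29 and 1.84 ± 0.35 on the log2 scale (edgeR adjusted p = 0.0048 and 0.0108). The most abundant targets did not pass, NPM1 at -0.50 ± 0.26, EIF4A1 at -0.40 ± 0.25 and HSPE1 at -0.79 ± 0.30 (edgeR adjusted p = 0.228, 0.300 and 0.112). Most of the tested erythroid markers moved the other way in the same libraries, as given above.

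Of 16 tested MuvB partners of MYBL2 and G2/M genes, 0 were called in either direction by edgeR or by DESeq2, and 1 was lower at an unadjusted p under 0.05. Their median log2 fold change was -0.11, with BIRC5 at -0.13 ± 0.28, TOP2A at 0.17 ± 0.27 and CCNA2 at -0.27 ± 0.26. Of 9 tested partners and targets of MYB, 0 were called by either tool, 1 was higher and 1 lower at an unadjusted p under 0.05, and the median was 0.37. The highest of them were HSPA8, a chaperone, at -0.70 ± 0.29, TAF12, a TFIID subunit, at 0.48 ± 0.25 and CDC25A, a phosphatase of cell cycle entry, at -0.49 ± 0.27.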

How the data were processed

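TIF-Seq2 libraries of K562 cells, 2 after imatinib and 2 after DMSO, were grouped by their titles, and the study's methods call the replicates biological. The authors deposited raw counts, each the number of read pairs with 1 combination of 5′ and 3′ end positions. By the study's methods, the authors trimmed reads with cutadapt, extracted unique molecular identifiers, mapped both ends to hg38 with STAR, retained pairs with unique positions and removed PCR duplicates by identifier. The submitters' processing notes name cutadapt 1.16, STAR 2.5.3a, minimap2 2.16 and bedtools 2.27.1. The long-read models cover none of the 10 genes and were not used, and the 3T-fill libraries were not analysed here.

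The members and all gene lists were chosen with earlier results of these data known, so no list is independent evidence. Tags were normalized by a power law (exponent 1.25, total 1000000, fitted between 10 and 1000 tags) and kept at 1 normalized tag in at least 2 libraries. They were joined within 10 bp for TIFs and 50 bp for regions, and TIFs needed at least 4 pairs with ends 300 to 2000000 bp apart. First exons were extended 100 bp upstream. Tests used edgeR's quasi-likelihood test (edgeR 4.0.16, limma 3.58.1, R 4.3.3; robust, TMM, filterByExpr) over all features, with diffSpliceDGE for relative use and Benjamini-Hochberg adjustment, called at an adjusted p under 0.05. Each standard error was taken from the fit as the size of the log2 fold change over the root of its F statistic. DESeq2 1.42.0 was an alternative, beside other filters, scalings, windows and joining distances, a replicate block and leaving out each library. The scripts were tested on simulated data. Shares have exact Clopper-Pearson 95% intervals, which cover counting error only. All 10 genes were described, with their regions of at least 10% of a gene's pairs and 20 pairs, their TIFs of at least 10% of its TIF pairs, and of each list the 3 highest genes and the 3 largest called folds each way.

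Replicates correlated at 0.978 (DMSO) and 0.952 (imatinib) in log2 CPM over 12135 genes and differed by a chi-square per degree of freedom of 6.54 and 10.5, beyond sampling noise, so each was counted as its own sample. One marker gene and 1 sequence are not reported here.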

Additional observations from a re-analysis of the deposited data

How the results depend on the processing

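With 2 libraries per condition, the limit is the read pairs behind a value, fewest in imatinib replicate 2. Among the 10 genes 2 were called, and 1 under DESeq2. Which of them were called also changed with the library left out, as did the number of calls among all genes. MNT ranged from -1.34 to 0.26 when a library was left out, positive at 0.26 without DMSO replicate 2 and 0.11 without imatinib replicate 2, and MGA from -0.86 to 0.23, positive without imatinib replicate 1. Other members kept their direction under the alternatives run. Without the filter on low counts 3 members were called, MYC, MXD4 and MYB, against 12.2% of all genes in that fit. Calls among all genes were 1800, and 2736 without a filter, 820 to 3955 when a library was left out, and 1426 under DESeq2. DESeq2 split them into 692 higher and 734 lower (48.5% higher) against 1054 and 746 (58.6%). DESeq2 called 1 TIF, 1 start region and 1 first exon group in place of 2 each. Leaving out a library gave 1 to 2 TIFs, 1 to 3 start regions, 1 to 5 poly(A) regions, 1 to 7 first exon groups, 0 to 1 start regions changed in relative use and 0 to 1 poly(A) regions. Joining tags within 20 bp gave 2 start regions changed in relative use in place of 1.

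The labels number the replicates in both conditions, but same-numbered libraries deviated apart (correlation -0.236 over 12135 genes). With the replicate block 1148 genes were called (9.46%). Among the members these were 2 of 10 gene sums, 2 of 13 TIFs, 2 of 8 start regions, 2 of 17 poly(A) regions and 3 of 11 first exon groups. The crossed pairing, chosen after seeing the data as was giving each pair to 1 gene, called 3723 genes (30.7%). Among the members it called 7 of 10 gene sums, 4 of 13 TIFs and 4 of 8 start regions. It also called 8 of 17 poly(A) regions, 6 of 11 first exon groups and 1 of 13 poly(A) regions in relative use. Shares over all TIFs, regions and groups were not taken under either pairing, so those member counts have no background. The cause of these differences was not tested.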
